A study of Homo sapiens with 9 samples.

Results

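Stable expression of the LINC00266-1 open reading frame was compared with an empty vector in HCT-116 cells, a long-used line from a human colon carcinoma. The comparison used 6 of the 9 RNA-seq libraries of the series: 3 labelled ORF, from cells that stably express the reading frame for its peptide, and 3 labelled NC, from cells with a blank vector. They were taken by their labels, with all genes of the shared gene table and all events of the 5 shared splicing tables. Both groups had the HCT-116 background and the same culture medium, and no other treatment is named. The labels give no promoter, do not say whether either line is 1 clone, and do not say whether the 3 libraries of a group came from separate cultures. The p-values therefore measure only the spread between these libraries, which may be technical. The third group of the series, with the start codon of the frame mutated, was not used here.

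LINC00266-1 is annotated as a long intergenic RNA gene, and its reading frame encodes a small peptide, as reading frames of some genes classed as noncoding do. Immediate early genes such as JUN, FOS and EGR1 are transcribed within minutes of a growth factor or stress signal without new protein synthesis, and in colon cancer cells they are a common readout of MAP kinase signalling. The integrated stress response works through phosphorylated eIF2alpha, the transcription factor ATF4 and its target DDIT3 (CHOP). Before an mRNA leaves the nucleus, SR proteins and hnRNPs steer which exons are joined and which introns are removed, and many of their own transcripts are spliced in alternative forms.

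Gene levels are given as the authors' normalized values, which are read counts divided by 1 factor per library, so levels are compared between libraries of the same gene and not between genes. LINC00266-1 (chromosome 20, 64290385 to 64313132, GRCh38) had normalized values of 10767, 10762 and 11529 in the ORF libraries, against 0.977, 0 and 0 in the NC libraries. The ORF libraries held 30490 recovered reads and the NC libraries 1, which per library depth is a ratio of 32100 (95% counting interval 5750 to 1270000). Related copies of this gene exist in the genome, so some reads may be shared. Recovered reads totalled 22278602, 19460596 and 19729152 in the ORF libraries, against 20382026, 23413103 and 20841800 in the NC libraries. A pair of features of the libraries moved with the groups. PKM, the pyruvate kinase of glycolysis, took 4.34%, 3.67% and 5.54% of reads in ORF, against 0.275%, 0.274% and 0.263% in NC. Genes with at least 1 read numbered 24505, 25621 and 25083 in ORF, against 25870, 26494 and 26664 in NC. Their part in the differences below was not tested.

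The libraries carried the markers of an epithelial line. EPCAM, an epithelial adhesion molecule, had 3646, 4447 and 4099.6 in ORF, against 4439, 4466 and 4489 in NC. CDX2, an intestinal transcription factor, had 561, 352 and 380.2 in ORF, against 466, 495 and 388 in NC. Of 20 colon and epithelial markers, 16 were in the table, but the differentiation markers VIL1, CDH17, LGALS4 and MUC2 were below 10 in every library. The summed fibroblast markers were 516 to 616 in ORF and 539 to 632 in NC, mostly COL1A1, and the summed blood cell markers were 109 to 118 in ORF and 83.3 to 89.9 in NC. The defining fibroblast marker DCN was at 0, 0 and 0 in ORF, against 2.93, 6.87 and 0 in NC, and LUM at 0, 0 and 0 in ORF, against 0, 2.58 and 0 in NC. COL3A1 had 2.16, 2.10 and 0 in ORF, against 12.7, 17.2 and 0.886 in NC, while ACTA2 had 98.5, 57.9 and 99.5 in ORF, against 40.1, 39.5 and 37.2 in NC. Of the blood cell markers, 4 of 14, PTPRC among them, had no value used here. Of all marker lists, CD14 and ANPEP were called, both higher in ORF, as was MOBP, a myelin gene in the list of neural markers.

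At an adjusted p below 0.05, limma called 103 of 24662 genes tested, which is 0.418%. Of the 103, 93 were higher in ORF (0.377% of genes tested) and 10 were lower (0.0405%). All 103 had ORF and NC libraries that did not overlap, as did 11.5% of all genes tested in the higher direction and 10.1% in the lower. Changes were mostly upward and often large: 79 genes were at least 2-fold higher, 36 at least 4-fold higher and 6 at least 2-fold lower on the log2(value + 1) scale, which understates changes of low genes. Of the called genes, 6 had no read in NC and 1 had no read in ORF. These genes, and called genes below 1 in every NC library, passed the filter on low values only through their higher group. The filter thus fixed their direction. Apart from LINC00266-1, those higher in ORF had at most 88 reads there. The median log2 fold change was 1.71 among genes called higher and -1.24 among genes called lower, against -0.04 among all genes tested. With genes that had no read in 1 group placed at their bound, these medians were 1.71 and -1.21. By annotation 91 of the 103 encode proteins. The plot of gene changes shows PKM and LINC00266-1 apart from the rest at high level, and most other called genes above 0.

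**Figure D1:**
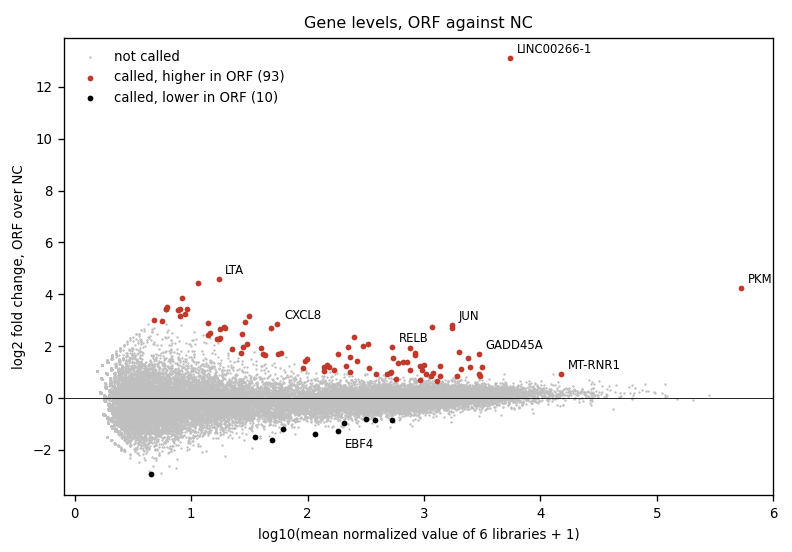
Each point is 1 of 24662 genes tested, with the mean normalized value over the 6 libraries on the x axis (log10 of value + 1) and the log2 fold change, ORF over NC, on the y axis. The 93 genes called higher in ORF are red, the 10 called lower are black and all others grey; LINC00266-1 lies at 13.10 and PKM at 4.23.

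Single libraries decided much of this count. Leaving out ORF replicate 1 gave 840 calls by limma (429 up, 411 down), leaving out ORF replicate 2 gave 1494 (840 up, 654 down), and leaving out ORF replicate 3 gave 24, each of them up. With NC replicate 1 left out there were 31 calls, with NC replicate 2 left out 32 and with NC replicate 3 left out 36, each of them up. The genes called without each library in turn were 23: PKM, JUN, EGR1, ATF3, GADD45A, CPA4, RELB, FOS, DDIT3, ZNF79, KLF10, PPP1R15A, MAFF, NR1D1, MXD1, CSRNP1, CYR61, DHRS2, CXCL8, HERPUD1, HIST1H2BD, CASS4 and HIST1H4E. No gene called lower was among them. The share of higher genes was 90.3% here, 89.9% and 89.4% by edgeR with TMM and RLE scaling, and 81.0% of the 210 called after quantile normalization. It was 69.5% of the 558 genes called by DESeq2 and 65.0% of the 2112 called after GC and length trends were removed. Deviations of the libraries from their group means followed gene GC content, with r across 12248 genes of 0.774, -0.720 and -0.370 in ORF, against 0.210, 0.521 and -0.546 in NC; the points share libraries and base composition.

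The list of immediate early genes held the most called genes. Of 31 such transcription factors and early genes tested, 10 rose, 0 fell and 21 did not pass the test. All ORF libraries were above all NC libraries in 22 of 31, against 11.5% of all genes tested. This list, like the others, was chosen with earlier results of these data known. Its shares therefore describe the list and are no independent support. The list's median log2 fold change was 0.56, against -0.04 over all genes tested, and was 0.52 to 0.61 across the scalings tried. The AP-1 subunit JUN (chromosome 1, 58780788 to 58784327) had normalized values of 3212, 2549 and 3461 in ORF, against 421, 434 and 426 in NC. Every ORF library was thus far above every NC library, and the NC libraries were nearly equal. The change was 7.13-fold (2.83 ± 0.14 on the log2 scale, with its SE and n = 3 libraries in each group; adjusted p = 2.8e-06 in limma). EGR1 (chromosome 5, 138465490 to 138469315), a zinc finger factor, had 2972, 2579.7 and 3424 in ORF, against 470.0, 493 and 426 in NC. The lowest ORF library was again well above the highest NC library, and the log2 fold change was 2.68 ± 0.14 (adjusted p = 2.86e-06).

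FOS, the usual partner of JUN in AP-1, had 419, 338 and 501 in ORF, against 74.3, 93.6 and 76.2 in NC (log2 fold change 2.34 ± 0.19, adjusted p = 0.000171). ATF3, a bZIP factor induced by many stresses, had 2129, 1672 and 2359.5 in ORF, against 314, 325 and 281 in NC (log2 fold change 2.73 ± 0.15, adjusted p = 4.96e-06). For both genes the ORF libraries lay apart from the NC libraries, with ORF replicate 2 the lowest of the 3. MAFF, a small MAF protein that pairs with other bZIP factors, rose 3.12-fold, and KLF10, a Krüppel-like repressor, rose 2.30-fold. CYR61, a secreted matrix protein of the CCN family, rose 2.88-fold. These 7 genes were called without each library in turn. EGR2 (3.92-fold), FOSB (2.83-fold) and the AP-1 subunit FOSL1 (2.26-fold) also rose, but lost their calls without ORF replicate 3 and without each NC replicate; the adjusted p was then 0.0612 to 0.153 for EGR2, 0.0935 to 0.187 for FOSB and 0.0641 to 0.187 for FOSL1.

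The other AP-1 and early genes did not pass. JUNB had a log2 fold change of 0.69 (adjusted p = 0.0704), IER2 0.71 and FOSL2 0.51, while JUND was at -0.20, KLF6 at 0.07 and IER5 at -0.21. EGR3, the sister gene of EGR1 and EGR2, had a log2 fold change of 1.78 and an adjusted p of 0.0536. CSRNP1, a nuclear protein that is not in this list, had 1625, 959 and 1317 in ORF, against 422, 409 and 322 in NC, and rose 3.33-fold. MYC, itself an early gene, had 8808, 7481 and 8298 in ORF, against 7940.2, 7848 and 7143 in NC, with overlapping groups and a log2 fold change of 0.10 ± 0.13, whose sign turned under quantile normalization and after GC and length trends were removed. The plot of single libraries shows the called genes beside those of other groups.

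**Figure D2:**
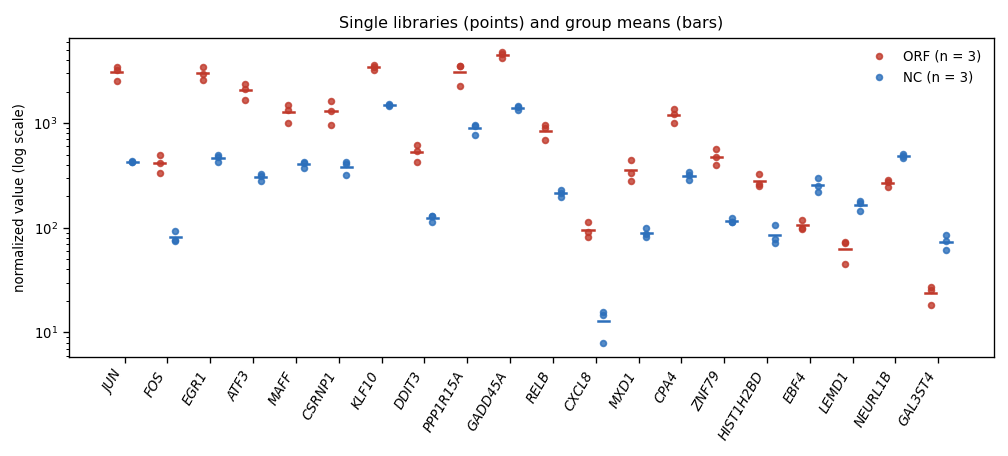
Normalized values (log axis) of 20 called genes in each library, with ORF in red left of NC in blue; points are single libraries (n = 3 per group) and bars are group means. In the first 16 genes every ORF point is above every NC point, and in EBF4, LEMD1, NEURL1B and GAL3ST4 every ORF point is below.

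Since these genes moved together, the promoters of all genes called higher were searched for motifs of serum response factor, AP-1, CREB and ATF, NF-kB and CEBP factors. The windows ran from 250 bases before to 50 after each gene's start (RefSeq, GRCh38.p14), and 71 of the 93 genes called higher had one. The CArG box, bound by serum response factor, was in 3 of these 71 promoters (4.23%) and in 1.29% of all 27305 promoters. The AP-1 motif TGACTCA was in 8 (11.3%), against 4.92% of all. The CRE motif TGACGTCA was in 5 (7.04%), against 1.98% of all. The NF-kB consensus, in capitals in the TNFAIP3 window, was in 1 (1.41%), against 0.194% of all, and the CEBP-ATF motif TGATGCAA was in 3 (4.23%), against 0.923% of all. Both strands were searched, and no promoter of a called gene held matches to more than 1 of these motifs. The 27305 promoters were not limited to genes tested here, so the shares do not compare called genes with other tested genes. A match describes letters only and is no evidence of binding.

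Windows of 9 of these genes are shown as examples, with at least 1 for each motif, chosen after the matches were seen. They run 5′ to 3′ in the direction of the gene, with the motif in capitals on the strand of the gene, and show only bases before the start.
EGR1, CArG box, chr5:138465364-138465393, plus strand: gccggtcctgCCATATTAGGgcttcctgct
EGR1, CArG box, chr5:138465386-138465415, plus strand: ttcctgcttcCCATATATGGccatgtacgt
DDIT3, TGACTCA, chr12:57520739-57520764, minus strand: gcgcgcgcaTGACTCAcccacctcct
CXCL8, TGACTCA, chr4:73740422-73740448, plus strand: ggaagtgtgaTGACTCAggtttgccct
CPA4, TGACTCA, chr7:130293103-130293129, plus strand: tttgaggactTGAGTCActctcagact
CPA4, TGACTCA, chr7:130293136-130293160, plus strand: aaatacagctTGACTCAgccactgt
PPP1R15A, TGACGTCA, chr19:48872353-48872380, plus strand: cctctcttcgTGACGTCAgcacgccggg
MAFF, TGACGTCA, chr22:38201930-38201957, plus strand: gccgggtcggTGACGTCAccgcatgact
CHAC1, TGATGCAA, chr15:40953252-40953279, plus strand: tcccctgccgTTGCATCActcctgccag
HERPUD1, TGATGCAA, chr16:56931956-56931983, plus strand: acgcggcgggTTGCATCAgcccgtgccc
TNFAIP3, NF-kB consensus, chr6:137867182-137867211, plus strand: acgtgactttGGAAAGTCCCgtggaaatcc
EGR1 held a pair of CArG boxes, which start 105 and 83 bases before its RefSeq start at 138465479. CPA4 had a pair of AP-1 motifs in opposite orientation, 48 and 15 bases before its start.

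Lists of stress response genes held called genes too. Of 30 genes of the ATF4 and CHOP response, 4 rose, 0 fell and 26 did not pass, with a median log2 fold change of 0.42. DDIT3, which encodes the transcription factor CHOP, had 546, 427 and 618 in ORF, against 130.0, 129.6 and 113 in NC. PPP1R15A (GADD34), which brings phosphatase to eIF2alpha, had 3521, 2263 and 3497 in ORF, against 938, 971 and 779 in NC. In both genes the groups were far apart, with ORF replicate 2 the lowest of its group, and the log2 fold changes were 2.07 ± 0.17 and 1.76 ± 0.18 (adjusted p = 0.000204 and 0.00101). CHAC1, which degrades glutathione, rose 2.69-fold and SESN2, a stress-induced regulator of mTORC1, rose 2.37-fold. Both lost their calls without ORF replicate 3 and without each NC replicate, with adjusted p of 0.122 to 0.29 for CHAC1 and 0.0657 to 0.145 for SESN2. ATF4 itself was at 0.51, the asparagine synthetase ASNS at 0.46, the pseudokinase TRIB3 at 0.83 and the serine synthesis enzyme PHGDH at -0.16, none of them past the test.

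Of 20 endoplasmic reticulum chaperone and unfolded protein response genes, 1 rose: HERPUD1, a membrane protein of the degradation pathway of that organelle. It had 2140.1, 1597 and 2092 in ORF, against 835, 859 and 784 in NC (log2 fold change 1.22 ± 0.14, adjusted p = 0.00239). The chaperone HSPA5 (BiP) was at 0.69 (adjusted p = 0.0643) and the transcription factor XBP1 at 0.56, while SEL1L, a partner of a ubiquitin ligase, was at -0.20. Of 20 aminoacyl-tRNA synthetases, many of which are ATF4 targets, 0 were called by limma, and their median was 0.25. Of these 20, 10 had an unadjusted p under 0.05, against 15.7% of all genes tested. Of 30 p53 target genes, 4 rose and 0 fell, with a median of 0.37. The 4 include SESN2, which is also counted among the genes that rose in the ATF4 and CHOP list. GADD45A, a stress-induced growth arrest protein, had 4610.2, 4194 and 4775 in ORF, against 1426, 1452 and 1345 in NC. The groups were well apart with little spread within each, and the log2 fold change was 1.68 ± 0.12 (adjusted p = 5.15e-05). Its relative GADD45B rose 2.64-fold and the nuclease AEN 1.89-fold, while the classical targets CDKN1A and MDM2 were at 0.57 and 0.36 and did not pass. GADD45B lost its call without ORF replicate 3 and without NC replicate 3 (adjusted p = 0.114 and 0.0892), and AEN without ORF replicate 3 and without each NC replicate (adjusted p 0.122 to 0.282).

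Among 23 NF-kB subunits and feedback genes, 2 rose and 0 fell, with a median log2 fold change of 0.25. RELB, a subunit of the noncanonical arm, had 962, 687 and 896 in ORF, against 214, 231 and 198 in NC (log2 fold change 1.97 ± 0.16, adjusted p = 0.000171). TNFAIP3 (A20), a deubiquitinating inhibitor of the pathway, averaged 230.0 ± 10.1 in ORF and 107 ± 5.63 in NC (SD, n = 3 each). Its groups did not overlap, but it lost its call without ORF replicate 3 and without each NC replicate (adjusted p 0.0904 to 0.134). The other subunits had smaller values that did not pass: NFKB2 was at 0.68, NFKB1 at 0.46, RELA at 0.21 and REL at -0.10 on the log2 scale. NFKBIA, an inhibitor that holds NF-kB in the cytoplasm, was at 0.36.

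Of 22 cytokine and chemokine genes, 3 rose. CXCL8 (interleukin-8), a neutrophil attractant, had 82.2, 113 and 91.7 in ORF, against 15.6, 14.6 and 7.97 in NC (log2 fold change 2.85 ± 0.30, adjusted p = 0.00124). For LTA (lymphotoxin alpha) the ORF libraries held 88 reads and the NC libraries 1, or a depth-scaled ratio of 92.5 (95% counting interval 16.2 to 3700). TNF, its neighbour on chromosome 6, had 29 reads in ORF and 0 in NC, and was at least 10.2-fold higher with the NC group set at the floor of 3 counts. The neighbouring lymphotoxin gene LTB was at -1.33, and the chemokines CXCL1, CXCL2 and CXCL3 were at 1.21, 0.58 and 1.31, none past the test. LTA kept its call without each NC replicate, and TNF lost it without NC replicates 1 and 2 (adjusted p = 0.0508 and 0.0509). Both reached a value of 1 only in ORF libraries, so the filter on low values had fixed their direction. Both failed that filter without an ORF library. The list's median was 0.45, also with TNF at its bound.

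Single members of 5 signalling lists rose. HBEGF, an EGF receptor ligand, had 486, 395 and 504 in ORF, against 188, 223 and 208 in NC and rose 2.22-fold among 13 EGF family ligands and receptors. DUSP8, a phosphatase of JNK and p38 kinases, rose 1.92-fold among 17 MAPK feedback inhibitors. Of these 17, 5 had all ORF libraries above all NC libraries and 4 all below, against 11.5% and 10.1% of all genes tested. The 4 were DUSP6 (log2 fold change -0.54), SPRY2 (-0.36), SPRY4 (-0.24) and DUSP4 (-0.20), none past the test. The medians of the EGF and MAPK lists were near 0 (-0.02 and -0.02) and turned sign with scaling. OSGIN1, an oxidative stress response gene, rose 2.11-fold among 23 NRF2 antioxidant and iron genes. OASL, an interferon-induced antiviral protein, had 238, 219 and 162 in ORF, against 81.1, 77.3 and 93.9 in NC, and rose 2.41-fold among 37 interferon response genes. MXD1, a MAX partner that opposes MYC, had 282, 335 and 449.5 in ORF, against 87.0, 99.6 and 81.5 in NC, and rose 3.89-fold among 38 MYC target and ribosome biogenesis genes. Of the 5, MXD1 was called without each library in turn. OASL lost its call without each NC replicate, and HBEGF, DUSP8 and OSGIN1 without ORF replicate 3 and each NC replicate (adjusted p 0.0892 to 0.131 for OASL, 0.0509 to 0.115 for HBEGF, 0.0933 to 0.227 for DUSP8 and 0.11 to 0.282 for OSGIN1).

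Clustered histone genes had the highest list median. Of 18 tested, 5 rose, 0 fell and 13 did not pass. All ORF libraries were above all NC libraries in 16 of them, against 11.5% of all genes tested. As this list too was chosen with earlier results known, that share is descriptive only. The median log2 fold change was 1.28, and 1.08 to 1.37 across the scalings. HIST1H2BD, an H2B gene, had 261, 254 and 324 in ORF, against 72.3, 107 and 78.8 in NC (log2 fold change 1.70 ± 0.20, adjusted p = 0.00241). HIST2H2BE, another H2B gene, had 103, 58.9 and 91.7 in ORF, against 24.4, 24.9 and 23.9 in NC. HIST1H1E, which encodes linker histone H1.4, had 63.8, 42.1 and 81.6 in ORF, against 12.7, 20.6 and 13.3 in NC. The groups did not overlap in any of the 3 genes. HIST1H2BE rose 4.94-fold, and HIST1H4B rose as well, with 25 reads over the ORF libraries, 1 over the NC libraries and a depth-scaled ratio of 26.3 (95% counting interval 4.3 to 1080). HIST1H4E, an H4 gene outside the list, had 44.4, 49.5 and 58.1 in ORF, against 7.82, 5.15 and 4.43 in NC and was called without each library in turn, like HIST1H2BD. HIST1H1E, HIST1H2BE and HIST2H2BE lost their calls without ORF replicate 3 and without each NC replicate (adjusted p 0.061 to 0.214, 0.0508 to 0.313 and 0.0875 to 0.153), and HIST1H4B without each NC replicate (adjusted p 0.0875 to 0.185). HIST1H4B reached a value of 1 only in ORF libraries, and it failed the filter on low values without an ORF library. HIST3H2A, an H2A gene, was at -0.09. Copies of histone genes are almost the same in sequence, and their reads may be split between them.

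Further genes rose that belong to no list, of which these were named for their size of change. CASS4, a scaffold protein of the CAS family, had 41.1, 55.8 and 69.3 in ORF, against 5.86, 5.15 and 4.43 in NC and rose 9.02-fold. CPA4, a secreted carboxypeptidase, had 1212, 1003 and 1367 in ORF, against 339, 318 and 283 in NC and rose 3.78-fold. ZNF79, a zinc finger protein, had 479, 396 and 566 in ORF, against 114, 124 and 113 in NC and rose 4.04-fold. All 3 were called without each library in turn. SPRR2D, a small proline-rich protein of the cornified envelope, rose 6.50-fold and PYGM, the muscle form of glycogen phosphorylase, rose 3.37-fold. SPRR2D lost its call without ORF replicate 3 (adjusted p = 0.091), and PYGM without ORF replicate 3 and NC replicate 1 (adjusted p = 0.0874 and 0.0612). Of the cell type markers, CD14, a monocyte receptor in the blood cell list, averaged 28.0 ± 7.42 in ORF and 4.86 ± 0.87 in NC (SD, n = 3 each). ANPEP, a brush border aminopeptidase in the colon and epithelial list, had 30.3, 26.3 and 40.3 in ORF, against 2.93, 2.58 and 7.97 in NC. Both lost their calls without ORF replicate 3 and without NC replicates 1 and 2, and CD14 also without NC replicate 3 (adjusted p 0.0719 to 0.185 for CD14 and 0.0879 to 0.185 for ANPEP). MOBP had 40 reads in ORF and 0 in NC, and was at least 14-fold higher with NC at the floor. It kept its call without each NC replicate but reached a value of 1 only in ORF libraries. It therefore failed the filter on low values without an ORF library.

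A set of called genes chosen after their values were seen adds 4 host genes of small nucleolar RNAs, whose introns carry guides for RNA modification. SNHG12 had 1618, 1372 and 1749 in ORF, against 856, 877 and 669 in NC. SNHG5 had 2459, 2375 and 2616 in ORF, against 1355, 1499 and 1288 in NC. The groups were apart in both, with log2 fold changes of 0.98 ± 0.15 and 0.85 ± 0.12 (adjusted p = 0.0172 and 0.0125). SNHG15 rose 1.82-fold and C6orf48 1.80-fold. GAS5 and SNHG1, other hosts, had log2 fold changes of 0.33 and 0.35 and did not pass. Also seen in this way were NR1D1 (REV-ERBalpha), a nuclear receptor of the circadian clock that rose 2.90-fold, and NOCT (nocturnin), which rose 1.97-fold. The laminin subunit LAMB3 and the keratin KRT80 rose by 1.11 and 1.39 on the log2 scale. MT-RNR1, the small mitochondrial ribosomal RNA, had 21292, 16094 and 22511 in ORF, against 11634, 9946 and 9479 in NC. Of these genes NR1D1 was called without each library in turn. The others lost their calls without ORF replicate 3 and each NC replicate, except KRT80, which lost its call without ORF replicate 3 and NC replicate 3. The adjusted p was then 0.0717 to 0.187 for SNHG12, 0.0679 to 0.153 for SNHG5, 0.165 to 0.313 for SNHG15, 0.157 to 0.29 for C6orf48, 0.0933 to 0.148 for NOCT, 0.0827 to 0.153 for LAMB3, 0.0559 to 0.083 for KRT80 and 0.114 to 0.287 for MT-RNR1.

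The 10 genes that fell had a median log2 fold change of -1.24, and the 93 that rose a median of 1.71. EBF4, a transcription factor of the early B cell factor family, had 99.5, 119.9 and 97.3 in ORF, against 222, 253 and 300.3 in NC (log2 fold change -1.28 ± 0.18, adjusted p = 0.0124). LEMD1, a LEM domain protein, had 71.4, 73.7 and 44.7 in ORF, against 146, 180.3 and 171 in NC. GAL3ST4, a sulfotransferase of glycans, had 18.4, 27.4 and 25.7 in ORF, against 85.0, 75.5 and 61.1 in NC. Each ORF library was below each NC library in these genes, and the log2 fold changes of LEMD1 and GAL3ST4 were -1.40 ± 0.23 and -1.60 ± 0.26. METTL7A, a methyltransferase-like protein, had 35.7, 34.7 and 38.0 in ORF, against 87.9, 78.1 and 88.6 in NC. NEURL1B, a ubiquitin ligase of the Notch pathway, had 288, 274 and 245 in ORF, against 489, 507 and 469 in NC. The potassium channel gene KCNC4, the dynamin gene DNM1 and AL365181.2 fell by 0.83, 0.81 and 0.96 on the log2 scale. RAET1E-AS1, an antisense gene whose reads cannot be told from its partner's without strand, fell by 1.49. AC013643.3 had 0 reads in ORF and 23 in NC and was at least 7.29-fold lower, with ORF at the floor of 3 counts. All 9 other genes lost their calls without ORF replicate 3 and without each NC replicate, with adjusted p of 0.0521 to 0.305. AC013643.3 lost its call without ORF replicate 3 (adjusted p = 0.227) and was not tested without an NC replicate.

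The plot of gene lists sets these groups beside the rest. In 17 of the 31 lists that are not cell type markers, limma called 0 of 476 list entries, against 87 at an unadjusted p under 0.05 (18.3%, near the 15.7% of all genes tested). edgeR on recovered reads called 0 of these genes as well, and DESeq2 called 17 of them. They include genes of splicing and of nonsense-mediated decay. The median log2 fold change was 0.24 for 16 SR proteins, 0.20 for 51 core spliceosome genes and 0.23 for 18 nonsense-mediated decay genes. Among such lists the share at an unadjusted p under 0.05 varied. It was 7 of 16 SR proteins, 11 of 51 core spliceosome genes and 7 of 18 nonsense-mediated decay genes, but 2 of 40 hnRNPs and 2 of 17 splicing kinases. The 21 writers, erasers and readers of m6A, the methyl mark on mRNA, had a median of 0.12. IGF2BP1, a reader of that mark, had 19.5, 29.5 and 21.2 in ORF, against 22.5, 20.6 and 20.4 in NC, with overlapping groups and a log2 fold change of 0.12 ± 0.29, which turned to -0.052 without ORF replicate 2. The most abundant members of these lists moved little: HNRNPA1, an hnRNP, was at -0.17, SRRM2, a splicing scaffold, at 0.11, PRPF8, the core of the spliceosome, at 0.28, EIF4A3, of the exon junction complex, at 0.26 and HNRNPC at 0.24.

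Medians of 17 CLK, SRPK and related splicing kinases (-0.06), 40 hnRNPs (0.04), 21 G1 cyclins and kinases (0.05), 28 cholesterol synthesis genes (0.05), 38 respiratory chain subunits (0.10), 13 mitochondrial mRNAs (0.12) and 54 ribosomal proteins (0.13) each turned sign under at least 1 other scaling. Wnt targets and mitosis genes had the lowest medians, -0.32 over 19 genes and -0.17 over 31, with 0 called in each by limma. At an unadjusted p under 0.05 in limma were 9 of the 19 Wnt targets and 8 of the 31 mitosis genes. Both are larger shares than the 15.7% of all genes tested. Of the 19 Wnt targets, 9 had all ORF libraries below all NC libraries, against 10.1% of all genes tested. Proteasome subunits had a median of 0.27 over 31 genes and cytosolic heat shock proteins 0.18 over 22, also with 0 called. CCND1 (cyclin D1), which drives entry into S phase and is a Wnt target, was at 0.53, against the sign of the Wnt median, and CDC20, an activator of the anaphase complex, at 0.38. Other abundant members were PSMD2 at 0.33, VARS at 0.38, HSP90AB1 at 0.21, the helicase subunit MCM7 at 0.19 and the ribosomal protein RPS2 at 0.19. PKM was the called member of the 32 glycolysis and hypoxia genes, with normalized values of 1044954, 751948 and 1222273 in ORF, against 54857, 55147 and 48506 in NC, an 18.7-fold change (adjusted p = 2.8e-06). The median of that list was 0.12 and turned sign with scaling. Reads of the tested PKM exon event did not rise in step, with 133, 70 and 83 in ORF, against 71, 99 and 62 in NC. Whether the rise of PKM covers its whole transcript was not tested.

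**Figure D3:**
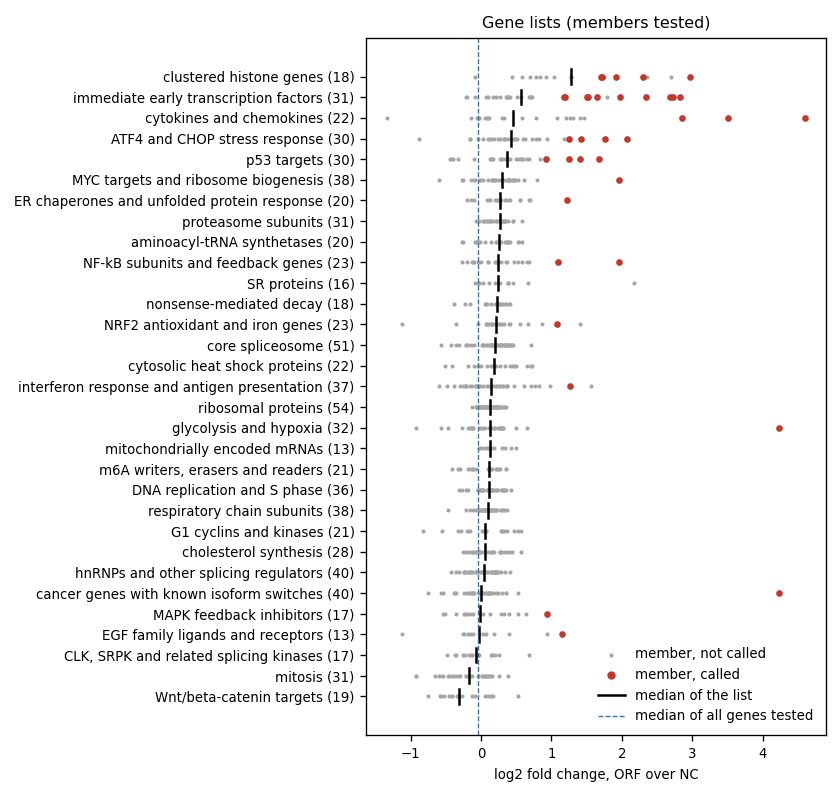
Log2 fold change, ORF over NC, of each tested member of the 31 gene lists (1 row per list); genes called are red, others grey, black bars are list medians and the dashed line is the median of all genes tested (-0.04). Histone genes have the highest median, 1.28, followed by immediate early transcription factors at 0.56, and no called member lies below 0.

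Splicing was described by inclusion levels, the share of a transcript's reads that carry 1 of a pair of alternative forms, from 0 to 1. The deposited tables held 95054 events, of which 23291 had at least 20 reads on average and a mean level between 0.05 and 0.95. An event was called at an adjusted p below 0.05 and a difference in level of at least 0.05. By this limma test 53 events in 43 genes were called, 44 of them lower in ORF and 9 higher. Of the 44, 14 were at 1.000 in every NC value, so they passed the filter on mean level only through lower ORF values. The filter thus fixed their direction in advance: 5 skipped exons, 3 retained introns, 4 alternative 3′ and 2 alternative 5′ splice sites. In the same way, SLC37A4 and CTBP2 were at 1.000 in every ORF value and could only be called higher. The ORF and NC values of all 53 did not overlap. The values within a group carry no library number, so they cannot be matched to the libraries of the gene table. Among the 33 events named by rule, those in EIF4G2, HNRNPA1, KLF10 and PRR14 and the SNHG12 intron were called in every setting in which they were tested (8 settings for KLF10 and 11 for each of the others), and the other called events lost their calls in at least 1.

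Retained introns had the highest share of calls, 16 of 1578 tested (1.01%), with 15 lower in ORF (0.951%) and 1 higher (0.0634%). The lower direction held beyond the calls: 69.9% of tested introns had a lower mean level in ORF, and 217 introns were lower and 33 higher at an unadjusted p under 0.05. All ORF values were below all NC values in 17.9% of introns, and above in 3.3%. The median level over all tested introns was 0.174, 0.201 and 0.198 in ORF, against 0.226, 0.213 and 0.251 in NC. These groups did not overlap, and the exact permutation p was 0.1, the smallest that 3 against 3 can give. Skipped exons shifted less, with median levels of 0.814, 0.823 and 0.812 in ORF, against 0.834, 0.836 and 0.832 in NC (exact permutation p = 0.1). Median levels of mutually exclusive exons were 0.513, 0.51 and 0.507 in ORF, against 0.507, 0.511 and 0.51 in NC, and overlapped (exact permutation p = 0.8). Without 1 of the NC values in turn, 4, 1 and 4 introns were called, all lower, and with log2 odds in place of transformed levels 9 were called, all lower. The plot of level differences shows the curve of retained introns displaced to the left of the others.

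**Figure D4:**
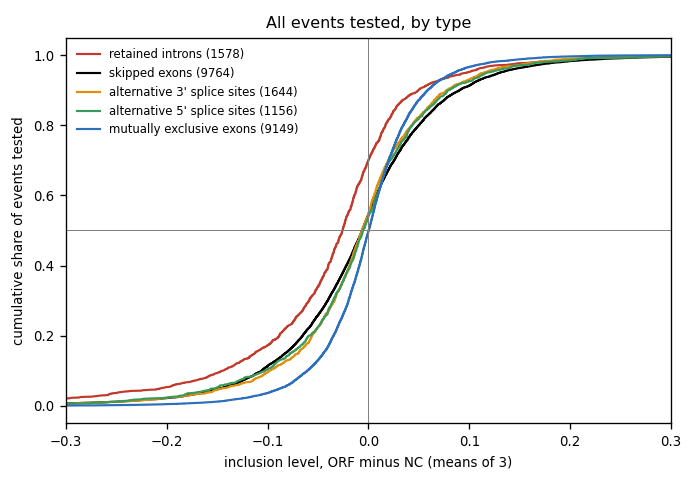
Cumulative share of tested events (y axis) by the difference in mean inclusion level, ORF minus NC (x axis, -0.3 to 0.3), with 1 line per event type. For retained introns 69.9% of events lie below 0, against 54.5% for skipped exons and 49.6% for mutually exclusive exons.

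The intron of SNHG12 (chromosome 1, 28579588 to 28579911, minus strand, GRCh38), a host gene of small nucleolar RNAs, had the largest fall among retained introns. Its retention level was 0.328, 0.396 and 0.384 in ORF, against 0.799, 0.801 and 0.861 in NC. The groups lay far apart, the adjusted p was 0.00266, and the call held in every setting tried. CIRBP encodes an RNA-binding protein of the cold-inducible kind. Its intron (chromosome 19, 1272052 to 1274306), which spans over 2000 bases, had levels of 0.497, 0.468 and 0.421 in ORF, against 0.637, 0.677 and 0.676 in NC. The groups did not overlap (adjusted p = 0.0287).

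The splice sites of both introns are shown because they carry the change, 5′ to 3′ on the strand of the transcript (GENCODE 29 transcripts, GRCh38), with the first and last bases of the intron in capitals.
SNHG12 5′ splice site, chr1:28579892-28579921, minus strand: gtgctttaagGTaaagttgatcagcttaat
SNHG12 3′ splice site, chr1:28579578-28579607, minus strand: gtggtgtttttttcttttAGattcatgtta
CIRBP 5′ splice site, chr19:1272042-1272071, plus strand: gacagttacgGTaagtcacactccgagggc
CIRBP 3′ splice site, chr19:1274287-1274316, plus strand: acgctgctttgctttggcAGgttgaagggg
All 16 called introns start with GT and end with AG, as do 98% of those tested. Their median GC content was 51.1%, against 57.9% over all tested introns, and their median length 366.5 bases, against 292.

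Further introns had lower retention in ORF. RBM3, a cold-inducible relative of CIRBP, had levels of 0.408, 0.377 and 0.532 in ORF, against 0.806, 0.853 and 0.890 in NC. TRA2A, an SR-like splicing activator, had 0.282, 0.370 and 0.229 in ORF, against 0.647, 0.676 and 0.755 in NC, and a second event with a shared 3′ splice site overlaps it. RPS9, a small-subunit ribosomal protein, had 2 called introns, of which the longer had 0.142, 0.145 and 0.163 in ORF, against 0.336, 0.354 and 0.379 in NC. In none of these did ORF and NC values overlap. The helicase DDX11 had 0.580, 0.537 and 0.788 in ORF, against 1.000, 1.000 and 1.000 in NC, with 5, 8 and 2 reads of the spliced form in ORF, against 0, 0 and 0 in NC, so the call rests on few reads. RNF214, a RING finger protein, and HARS, the histidyl-tRNA synthetase, were also at 1.000 in every NC value, with means of 0.751 and 0.821 in ORF, and rest on 8 or fewer spliced reads per ORF library. The intron of DDIT3, whose gene level rose, had 0.052, 0.047 and 0.064 in ORF, against 0.157, 0.239 and 0.243 in NC. CHKB (choline kinase beta), POLR3C (an RNA polymerase III subunit) and PQBP1 (a polyglutamine-binding protein) fell, with differences in level of -0.309, -0.296 and -0.0947. The intron that rose was in SLC37A4, the glucose-6-phosphate transporter, with 1.000, 1.000 and 1.000 in ORF, against 0.857, 0.885 and 0.897 in NC. It had 0, 0 and 0 reads of the spliced form in ORF, against 2, 2 and 2 in NC, so this call also rests on few reads.

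**Figure D5:**
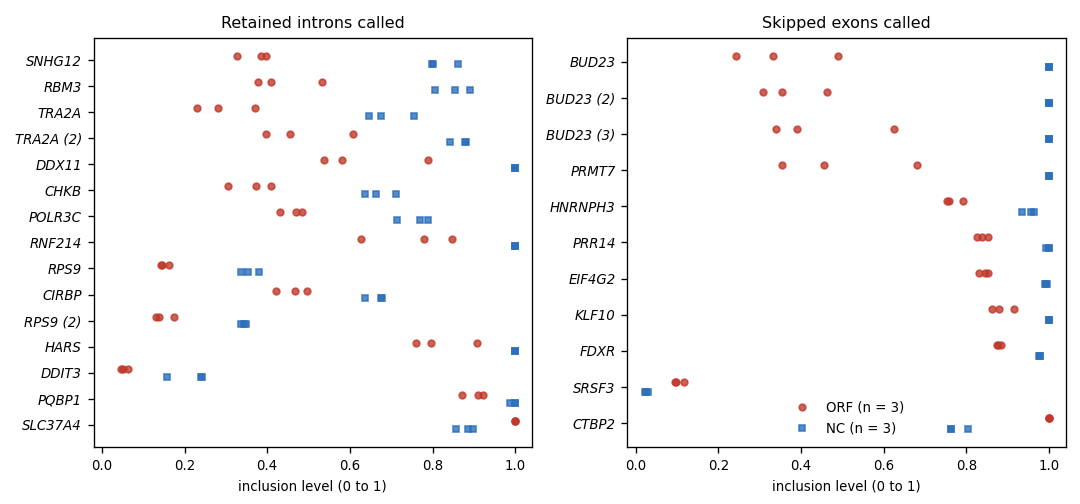
Inclusion level (0 to 1) of 15 of the 16 called retained introns and of the 11 called skipped exons in each library, with ORF in red and NC in blue; points are single libraries (n = 3 per group). Among these introns the ORF points lie below the NC points in all but SLC37A4, and among exons in all but SRSF3 and CTBP2.

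Of 9764 skipped exons tested, 11 were called (0.113%), 9 lower in ORF (0.0922%) and 2 higher (0.0205%). Over all tested exons, 9.47% had ORF values all below NC values and 6.37% all above. In BUD23, a methyltransferase of 18S ribosomal RNA, 3 called events share 1 skipping junction and are thus not independent. That junction had 42, 47 and 76 reads in ORF, against 0, 0 and 0 in NC, and the level of the exon at chromosome 7, 73683767 to 73684000 was 0.463, 0.309 and 0.354 in ORF, against 1.000, 1.000 and 1.000 in NC. PRMT7, an arginine methyltransferase, had 16, 22 and 37 skipping reads in ORF, against 0, 0 and 0 in NC, and levels of 0.681, 0.354 and 0.456 in ORF, against 1.000, 1.000 and 1.000 in NC. Skipped forms of these genes were thus read in ORF libraries alone, at this depth. The exon of HNRNPH3, an hnRNP of the H family, had 0.759, 0.792 and 0.752 in ORF, against 0.935, 0.963 and 0.956 in NC. SRSF3 encodes an SR protein, a class known for exons that bring a premature stop codon into the transcript. Its exon at chromosome 6, 36599821 to 36600276, of 456 bases, had 0.095, 0.098 and 0.116 in ORF, against 0.025, 0.022 and 0.029 in NC. It was thus included more often in ORF, with an adjusted p of 0.00545.

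The junctions that join the flanking exons when the exon is left out are shown for the genes whose exons differed, with the 3 bases on either side of the join in capitals. Coordinates run from the first to the last base of the printed sequence and span the skipped region.
BUD23, chr7:73683659-73686650, plus strand: ggacccccagagCTGCTCacggatgattga
HNRNPH3, chr10:68337319-68338517, plus strand: ttcagttctttcAAGGTAtattgagatctt
SRSF3, chr6:36598969-36601166, plus strand: tccacctcgtcgCAGATCtccaagaaggag
Further exons with lower inclusion lay in EIF4G2, a translation initiation factor, with 0.846, 0.853 and 0.830 in ORF, against 0.993, 0.989 and 0.994 in NC, and in PRR14, a protein of the nuclear lamina, with 0.826, 0.838 and 0.853 in ORF, against 1.000, 0.992 and 1.000 in NC. FDXR, the ferredoxin reductase of mitochondria and a p53 target, had 0.876, 0.874 and 0.884 in ORF, against 0.979, 0.976 and 0.978 in NC. KLF10, whose gene level rose, had 0.915, 0.863 and 0.879 in ORF, against 1.000, 1.000 and 1.000 in NC. CTBP2, a transcriptional corepressor, rose to 1.000, 1.000 and 1.000 in ORF, against 0.804, 0.762 and 0.763 in NC. A PKM exon of 117 bases (chromosome 15, 72221168 to 72221284) had 0.271, 0.272 and 0.343 in ORF, against 0.121, 0.084 and 0.087 in NC. The values did not overlap, but the adjusted p was 0.273, so the exon was not called. It rests on 133, 70 and 83 reads in ORF, against 71, 99 and 62 in NC, while the normalized value of the gene differed 18.7-fold. The reads of this event thus did not follow the gene value.

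Alternative splice sites changed in few genes, all toward a lower share of the longer exon in ORF. At 3′ splice sites 6 of 1644 events were called (0.365%), and at 5′ splice sites 3 of 1156 (0.26%). ORF values were all below NC values in 8.45% of tested 3′ splice sites and 8.22% of 5′ splice sites, and all above in 5.66% and 6.31%. ISG20, an interferon-induced exonuclease, had 0.582, 0.440 and 0.402 in ORF, against 1.000, 1.000 and 1.000 in NC. MIB2, a ubiquitin ligase, had 0.656, 0.378 and 0.661 in ORF, against 1.000, 1.000 and 1.000 in NC. Of the shorter form, ISG20 had 2, 3 and 5 reads in ORF, against 0, 0 and 0 in NC, and MIB2 6, 10 and 3 in ORF, against 0, 0 and 0 in NC, so both calls rest on few reads. RPS18, a ribosomal protein, fell by 0.149 in level, the acetyltransferase-related SAT2 by 0.129 and AUP1, a protein of lipid droplets and ER degradation, by 0.151. Further calls were in DDX11, CYB5R1, SNHG1 and IDH3G, with falls of 0.0837 to 0.114. The DDX11 event ends at the same 3′ splice site as the DDX11 retained intron. It has the same numbers of short-form reads, 5, 8 and 2 in ORF, against 0, 0 and 0 in NC, so these DDX11 calls are not independent. CYB5R1 also rests on few such reads, 8, 5 and 4 in ORF, against 0, 0 and 0 in NC. Over all 5 event types, 14 called events were at 1.000 in every NC value. They include 4 of the 6 calls at 3′ splice sites and 2 of the 3 at 5′ splice sites. The filter on mean level had fixed the lower direction of these calls.

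For mutually exclusive exons the level is the share of the form with the exon nearer the 5′ end of the transcript. Here 17 of 9149 events were called (0.186%), 11 lower in ORF (0.12%) and 6 higher (0.0656%), while ORF values lay all below NC values in 5.9% of tested events and all above in 6.57%. HNRNPA1, an hnRNP that represses exons, had 0.758, 0.732 and 0.720 in ORF, against 0.862, 0.853 and 0.890 in NC. HNRNPH3 had 0.611, 0.595 and 0.581 in ORF, against 0.730, 0.742 and 0.773 in NC, for the same exon as its skipped event. The groups did not overlap in either gene. GAS5 and SNHG12, hosts of small nucleolar RNAs, had 3 and 1 called events. The deepest GAS5 event had 0.147, 0.278 and 0.162 in ORF, against 0.398, 0.338 and 0.430 in NC, and the SNHG12 event 0.625, 0.608 and 0.684 in ORF, against 0.851, 0.814 and 0.894 in NC. Another GAS5 event that fell shares an exon with the deepest, so they are not independent. The remaining GAS5 event rose, with 0.865, 0.808 and 0.851 in ORF, against 0.749, 0.773 and 0.685 in NC. An ANKRD11 event, in a chromatin regulator, had 0.146, 0.131 and 0.105 in ORF, against 0.248, 0.305 and 0.252 in NC. U2AF1, which recognises the 3′ splice site, had 0.398, 0.424 and 0.237 in ORF, against 0.847, 0.828 and 0.456 in NC, with a wide spread inside both groups. Its reads may be shared with a near-identical annotated copy, and its call was lost in 8 of 11 settings. Among events that were higher in ORF, LSR, a lipoprotein receptor, had 0.559, 0.565 and 0.560 in ORF, against 0.462, 0.468 and 0.408 in NC. EIF5A, a translation factor, had the smallest called difference, 0.058, on an average of 18039.7 reads per library.

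Of the 43 genes with a called event, DDIT3, KLF10 and SNHG12 also had a called level (6.98%), while 28 of all 7080 genes with a tested event had one (0.395%). These 3 genes were 10.7% of the 28, and 2.91% of all 103 genes with a called level. Levels and events were read from the same libraries. The median log2 fold change in level of the called events' genes was 0.26. Over all event types 0.228% of tested events were called, and 9.09% had an unadjusted p under 0.05. Of the lists, SR proteins had 39 tested events with 3 called, in SRSF3 and TRA2A, where 2 called events overlap. The hnRNPs had 177 tested with 3 called, in HNRNPA1 and HNRNPH3, where 2 share an exon, and the core spliceosome 94 with 1, in U2AF1. Ribosomal proteins had 104 tested with 3 called, in RPS9 and RPS18. CLK and SRPK kinases had 48 events, nonsense-mediated decay genes 50, m6A genes 47 and cancer genes with known isoform switches 205, with 0 called in each by limma, against 9, 5, 8 and 9 at an unadjusted p under 0.05 (18.8%, 10%, 17% and 4.39%). No other tool was run on events.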

How the data were processed

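RNA was extracted with Trizol and sequenced on Illumina libraries, per the labels. Per the submitters' processing notes the builds were GRCh38 and hg38, while aligner, counting tool and strandedness are not given in the sources used. The authors deposited a normalized signal per gene and library, in which all values are whole multiples of 1 step within a tolerance of 0.1, so read counts could be recovered from the deposited values (19460596 to 23413103 per library, 100% whole). For splicing, the authors deposited read numbers and inclusion levels of both forms, with 3 libraries in 1 cell; 44791 of 95054 events had cells whose commas were lost, and 79.79% of events had 1 split that matched the deposited level within 0.001. Genes with a value of at least 1 in 3 libraries were tested (24662 of 30973) with limma 3.58.1 (R 4.3.3, empirical Bayes with trend) on log2(value + 1), with Benjamini-Hochberg adjusted p-values over all genes tested and a threshold of 0.05. Events were tested with limma on the arcsine square root of the level, adjusted within each event type. edgeR 4.0.16 and DESeq2 1.42.0 on recovered reads, other pseudocounts, filters and scalings, a replicate block and leaving out each library were alternatives. Scripts were tested on simulated data.

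Named genes were LINC00266-1, PKM, MYC, IGF2BP1, the 20 called genes with the largest rise among those with a mean of at least 50 and no overlap, every gene that fell, and up to 4 called members of each list (the most abundant member where none was called). Named events were the 6 largest of each type, those of splicing gene lists and those of called genes. Further list members and the other genes described were named after their values were seen. Members and gene lists were chosen with earlier results of these data known. A few items are not reported here. Counting intervals and the floor of 3 counts cover counting error only.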

Additional observations from a re-analysis of the deposited data

How the results depend on the processing

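The count of 103 genes was 96 to 113 with a pseudocount of 0.5 or 5, without a filter on low values, with at least 10 in 3 libraries, and with edgeR. It was 558 with DESeq2 (388 higher, 170 lower), 210 after quantile normalization (170 and 40), and 2112 after GC and length trends were removed (1372 and 740). Without 1 library it was 24 to 1494, lowest without ORF replicate 3 and highest without ORF replicate 2, and it was 840 without ORF replicate 1 and 31, 32 and 36 without NC replicates 1, 2 and 3. With the replicate number as a block it was 301 (219 and 82), and 2504 (1572 and 932) with the block and the GC and length correction. Deviations of libraries with the same number correlated at 0.287, -0.607 and 0.292, and not every library correlated best with its own number. As these deviations also followed GC content, they cannot tell whether libraries with the same number belong together. Of 52 named genes, 21 kept direction and call in every setting, 29 lost their call in at least 1 and 2 turned direction: MYC at -0.064 with quantiles equalised and at -0.020 once GC and length were corrected for, with or without the block, and IGF2BP1 at -0.052 without ORF replicate 2 (up to 0.234, without ORF replicate 1), neither called. The cause was not tested.

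Retained introns called were 9 on log2 odds and 1 to 18 without 1 value. Alternative 3′ splice sites called were 0 on the levels as deposited (148 at an unadjusted p under 0.05 in that limma test), 2 on log2 odds and 0 to 6 without 1 value. Alternative 5′ splice sites called were 7 at a mean of 50 reads, 0 on the levels as deposited (114 at an unadjusted p under 0.05 in that limma test) and 0 to 4 without 1 value. Mutually exclusive exons called were 6 on the levels as deposited, 2 on log2 odds and 2 to 18 without 1 value. Skipped exons called were 5 to 15 without 1 value. Of 33 named events 0 turned direction. No paired analysis was possible because splicing values carry no library number. Events with few reads limit the depth of these calls.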
